A study of Homo sapiens with 28 samples.

Results

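The genes described here are 10 parts of the bone morphogenetic protein (BMP) and transforming growth factor beta (TGF-beta) pathways: the ligand BMP2, the receptor BMPR1B, the pseudoreceptor BAMBI, the extracellular inhibitor LEFTY1, the inhibitory signal proteins SMAD6 and SMAD7, and the targets ID1, ID2, ID3 and TGFBI. They were chosen by name, with earlier results of these data known. The shares of members set beside those of all genes below are therefore a description and no test. The members are 10 of 19775 genes with a probe set that carries a single gene symbol. Between them they had 17 such probe sets, and each gene was read from its brightest one. All 10 passed the filter on low values, which asked for a signal above the median of all values (89.4, or 6.72 on the log2 scale) on at least 4 arrays and which 13808 genes passed.

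BMP and TGF-beta ligands bind pairs of receptor kinases at the cell surface, which phosphorylate SMAD proteins that then enter the nucleus with SMAD4 and bind DNA. BMP receptors act mainly through SMAD1, SMAD5 and SMAD9, whose best known targets are the ID genes, while TGF-beta and activin receptors act mainly through SMAD2 and SMAD3. Both branches switch on their own inhibitors, among them SMAD6, SMAD7 and BAMBI, and BMP signals pattern the developing kidney.

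RNA had been measured in 28 tumours grown from the human renal carcinoma lines 786-O and A498 under the flank skin of female athymic nude/beige mice, 6 to 8 weeks old when injected. In 786-O the sorafenib arm had 5 untreated and 5 resistant tumours and the sunitinib arm 5 untreated and 4 resistant tumours, and A498 had 4 untreated and 5 sorafenib-resistant tumours. Gavage of sorafenib (80 mg/kg) or sunitinib (53.6 mg/kg), which both block VEGF receptors, started at a tumour diameter of 12 mm and was given 6 days in 7. A diameter limit of 20 mm is listed for every group. The comparison asks how expression differs once tumours have become resistant. Only the resistant tumours had been given drug, so resistance cannot be told apart from drug exposure. Every group shared the host strain, sex and site, the labels name no engineered allele, the stroma of such tumours is the mouse's own, the untreated tumours' size is not in the labels, and whether every tumour had a mouse of its own is not stated. The p-values therefore cover only the spread among these tumours, which may be technical.

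The proximal promoters of ID3, SMAD6, SMAD7 and BAMBI are printed first, because all 4 genes are known SMAD targets. A link between these sequences and the changes in expression was not tested. Each line is the 250 bases before the transcript start in RefSeq on GRCh38.p14, read 5′ to 3′ on the gene's strand: ID3 at chr1:23559502-23559751 (minus strand), SMAD6 at chr15:66701986-66702235 (plus), the outermost of 3 SMAD7 starts at chr18:48950966-48951215 (minus) and BAMBI at chr10:28677271-28677520 (plus). Capitals mark the SMAD-binding motif GTCT on either strand (AGAC on the printed one) and the GC-rich motif GGCGCC.
ID3: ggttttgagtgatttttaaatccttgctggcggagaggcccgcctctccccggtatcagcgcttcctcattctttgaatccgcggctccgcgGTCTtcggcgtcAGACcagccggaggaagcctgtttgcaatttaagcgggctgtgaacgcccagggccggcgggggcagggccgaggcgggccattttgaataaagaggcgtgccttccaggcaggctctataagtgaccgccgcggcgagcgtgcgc
SMAD6: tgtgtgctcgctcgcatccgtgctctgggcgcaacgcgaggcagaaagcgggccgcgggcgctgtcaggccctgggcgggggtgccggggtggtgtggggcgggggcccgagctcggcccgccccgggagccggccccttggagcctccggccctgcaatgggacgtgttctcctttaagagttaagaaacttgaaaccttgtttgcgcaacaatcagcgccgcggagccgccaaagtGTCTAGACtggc
SMAD7: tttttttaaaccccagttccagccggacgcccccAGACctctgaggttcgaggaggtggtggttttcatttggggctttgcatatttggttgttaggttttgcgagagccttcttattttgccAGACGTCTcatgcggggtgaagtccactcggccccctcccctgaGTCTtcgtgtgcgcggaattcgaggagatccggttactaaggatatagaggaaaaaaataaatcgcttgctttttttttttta
BAMBI: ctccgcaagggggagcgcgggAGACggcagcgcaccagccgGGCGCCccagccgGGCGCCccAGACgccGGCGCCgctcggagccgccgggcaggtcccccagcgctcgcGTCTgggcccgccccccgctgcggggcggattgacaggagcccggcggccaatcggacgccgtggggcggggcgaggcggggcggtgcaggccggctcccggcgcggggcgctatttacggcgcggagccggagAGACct
The ID3 window held 2 matches to GTCT, and the printed ones of SMAD7 and BAMBI held 4 each. Windows at the other SMAD7 starts held 1 and 5. Of members not printed, ID1 had 3, ID2 had 2, TGFBI had 1 and the starts of BMPR1B had 1, 3 and 5. At least 1 match was present in 77.5% of all 35116 promoter windows of this length and at least 4 in 7.75%. The SMAD6 window held the palindrome GTCTAGAC, in which GTCT and its reverse complement abut, and 0.182% of all windows did. The BAMBI window held 3 copies of GGCGCC, against 0.527% of all windows with at least 3 and 16.4% with at least 1. These matches describe the letters only. Windows were on hand for 8 of the 10 members, and none for LEFTY1 and BMP2.

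Signals are linear units scaled by the authors to 1 trimmed mean on every array (500.06 to 500.07), array medians lay between 79.7 and 99.4, and tumours of 1 group correlated with r of 0.949 to 0.971. Differences were taken between means of log2(signal + 16), where changes of dim genes come out too small. They are given with their standard error and were tested with limma over all 13808 genes, with a call where the adjusted p (Benjamini-Hochberg) was below 0.05. The renal carcinoma markers PAX8, VIM, KRT8, KRT18 and CDH6 were above the filter limit in every group, 6 or 7 of 8 endothelial and 6 of 8 macrophage markers were below it, and CDH5, VWF, CD14 and PTPRC were below it in all groups. Probe sets were designed for human transcripts, and RNA of mouse cells was not separated from that of the tumour cells. In bulk tumours fewer cells of a type cannot be told apart from less RNA per cell.

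In 786-O tumours resistant to sorafenib, LEFTY1, ID3 and BAMBI fell and SMAD7 rose. LEFTY1 was 6.94-fold lower, ID3 3.25-fold and BAMBI 1.76-fold, and SMAD7 was 1.46-fold higher. The 4 of 10 members called are set against 15.2% of all genes called in this comparison (5.97% higher and 9.18% lower; 825 and 1267 genes, or 1195 and 733 after centring each array on its median), and the same 4 had no overlap between the groups, as 12.5% of all genes did. BMPR1B, BMP2, ID1 and SMAD6 also had lower means in resistant tumours but missed the threshold. Beside these changes 6 of 11 tested fibroblast and pericyte markers fell (COL3A1, COL1A2, FBLN1, COL1A1, RGS5 and COL5A1, by 1.02 to 1.93 on the log2 scale) and 0 rose. For COL5A1 both means of this arm, 48.8 untreated and 14.3 resistant, were below the filter limit of 89.4. Its means were above that limit in A498 (728 untreated and 1739 resistant), so its fall here is one between dim values. The summed signal of the 13 markers on that list ran from 7882 to 11340.2 in untreated and from 3067 to 5220.3 in resistant tumours. Of 2 tested endothelial markers TIE1 fell by 1.70 ± 0.40 (signal 141 ± 16.8 SD untreated, 35.6 ± 21.1 resistant, adjusted p = 0.00427), and the summed signal of all 8 ran from 369 to 465 untreated and from 179 to 433 resistant. Of 5 renal carcinoma markers CDH6, a kidney cadherin, fell by 0.68 ± 0.13 and KRT18 rose by 0.42 ± 0.12. The part of these markers in the members' changes was not tested.

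In 786-O tumours resistant to sunitinib, SMAD7 was the 1 member that passed the test, 1.63-fold higher than in the untreated tumours of that arm. That is 1 of 10, against 5.06% of all genes called (2.22% higher and 2.84% lower; 306 and 392 genes, or 359 and 263 after centring). With only the 9 arrays of the arm in the fit it missed the threshold (adjusted p = 0.0543). Groups did not overlap for SMAD7 and SMAD6, against 8.46% of all genes, and the difference of SMAD6 (-0.27 ± 0.15) was not called (limma adjusted p = 0.368). Without single arrays that background of 698 genes was 442 (untreated replicate 1), 313 (resistant replicate 3) and 396 (resistant replicate 4). Of the fibroblast and pericyte markers RGS5 fell here, as did the renal marker CDH6 (-0.58 ± 0.14), and the summed signals of that list overlapped (4414 to 9127 untreated, 3754 to 7968 resistant). Their part in the rise of SMAD7 was not tested.

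In A498 tumours resistant to sorafenib, BMPR1B rose 3.68-fold, BMP2 fell 2.42-fold and ID3 fell 1.96-fold. These are 3 of 10 members, against 6.34% of all genes called (2.93% higher and 3.4% lower; 405 and 470 genes, or 173 and 801 after centring). After centring 5 members were called, LEFTY1 and SMAD6 being the added ones. The background of 875 genes was 467 without untreated replicate 1, 583 without untreated replicate 4 and 571 without resistant replicate 3. BMPR1B, BMP2 and SMAD6 had no overlap between the groups, against 9.14% of all genes, and ID3 did overlap. Of the fibroblast and pericyte markers COL5A1 rose, and the list's summed signal ran from 7967 to 17717 in untreated and from 11942 to 27075 in resistant tumours. Most of that sum was COL1A1, which was not called, at a mean of 10028 ± 4138 SD untreated and 15371 ± 4685 resistant. The renal marker KRT8 fell by 0.44 ± 0.12. The part of these markers in the members' changes was not tested.

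The 3 arms share no tumour, and 7 of the 10 members had a difference of the same sign in all 3, where 35.8% of all genes tested did. LEFTY1, ID3, BMP2, ID1 and SMAD6 were lower in each arm and SMAD7 and ID2 higher. BMPR1B and BAMBI were lower in both 786-O arms and higher in A498. With arrays centred on their medians, 8 of 10 members and 34.3% of all genes had 1 sign, as TGFBI then was higher in all arms. The sign of ID2 in A498 and of BMP2 with sunitinib each rested on 1 tumour, as given with those genes.

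**Figure D1:**
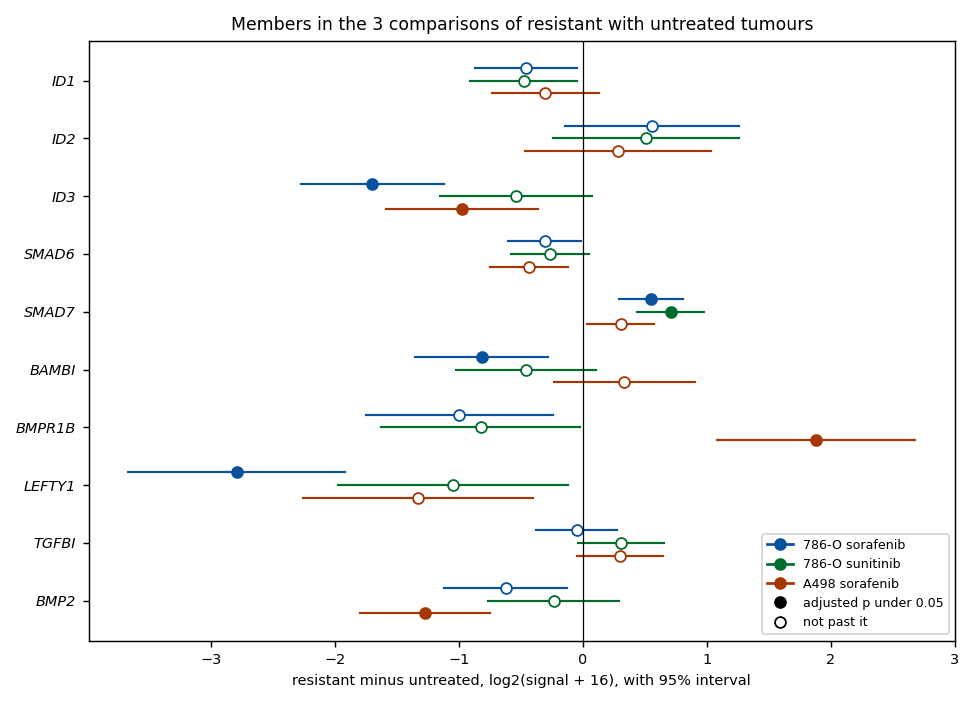
Difference between resistant and untreated tumours for each member in each arm, on the log2(signal + 16) scale, with its 95% interval (not adjusted for the number of genes). Filled points passed an adjusted p of 0.05. SMAD7 lies to the right of 0 in all 3 arms and ID3 and LEFTY1 to the left, and BMPR1B changes side between 786-O and A498.

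BMP2 is a secreted ligand that binds BMPR1A and BMPR1B. In untreated A498 tumours its signals were 494, 472, 431 and 608, and in the resistant ones 187, 162, 199.6, 221 and 214. Every resistant tumour was below every untreated one, and BMP2 fell by 1.28 ± 0.25 on the log2 scale (limma adjusted p = 0.00379). A second BMP2 probe set read 421, 288, 315 and 418 in untreated and 123, 141, 134, 126 and 159.7 in resistant A498 tumours. Those groups did not overlap either, and its difference of -1.29 ± 0.47 was not called (adjusted p = 0.124). In 786-O the gene was near or below the filter limit: untreated tumours of the sorafenib arm read 143, 90.4, 68.9, 142 and 116 and resistant ones 53.2, 84.4, 78.6, 35.5 and 86.4. These overlapped, at a difference of -0.62 ± 0.24 (adjusted p = 0.0814), which was called without untreated replicate 3 (adjusted p = 0.0401). On the second probe set the same tumours read 153, 106, 133, 185 and 156 against 73.8, 12.3, 78.2, 25.7 and 76.0, without overlap, and this set fell by 1.37 ± 0.44 (adjusted p = 0.0435 over 26924 probe sets). In the sunitinib arm the difference was -0.24 ± 0.25 (adjusted p = 0.678) and became 0.026 without untreated replicate 1, which read 189 where its group's other tumours read 51.0 to 96.7.

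BMPR1B is a type I receptor kinase for BMP ligands. In untreated A498 tumours its brightest probe set read 4.32, 64.1, 64.4 and 105, and in resistant ones 149.8, 131, 326, 338 and 214. The lowest resistant tumour was above the highest untreated one, and the rise was 1.88 ± 0.39 (adjusted p = 0.00467). In the untreated group 1 of 4 tumours was above the filter limit, so the size of the rise leans on dim values: without untreated replicate 1, the tumour at 4.32, it was 1.34 (adjusted p = 0.0238). With only the 9 A498 arrays in the fit the rise was not called (adjusted p = 0.0839). A second BMPR1B probe set read 33.0 to 73.4 in untreated and 65.8 to 143 in resistant A498 tumours, at a difference of 0.72 ± 0.24 that was not called (adjusted p = 0.0972). In 786-O the direction was the other one. Untreated tumours of the sorafenib arm read 350.7, 472, 475, 419 and 617 and resistant ones 234, 277, 130.3, 173 and 359.9, which overlap by 1 tumour. The difference was -1.0 ± 0.37 (adjusted p = 0.0676), and without resistant replicate 5, the tumour at 359.9, it was -1.16 and called (adjusted p = 0.0469). The second probe set, at 260.1 to 381 against 127 to 245 without overlap, fell by 0.85 ± 0.23 (adjusted p = 0.0153). With sunitinib the brightest set read 701, 831, 695, 355 and 400.2 untreated and 355, 437, 261 and 233 resistant, a difference of -0.83 ± 0.39 that was not called (adjusted p = 0.247).

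The change of BMPR1B under sorafenib differed between the lines, by 2.88 ± 0.53 on the log2 scale (interaction contrast in limma, adjusted p = 0.0024). It was the 1 of 10 members whose change was called different between A498 and 786-O, against 5.19% of all genes (3.02% higher and 2.17% lower; 417 and 299 genes, or 191 and 714 after centring). The interaction for BAMBI was 1.15 ± 0.38 (adjusted p = 0.0756), for LEFTY1 1.46 ± 0.62 (0.177), for ID3 0.73 ± 0.41 (0.325) and for BMP2 -0.65 ± 0.35 (0.297). Without resistant A498 replicate 5 that of BAMBI was 1.34 and called (adjusted p = 0.0347). Fibroblast and pericyte markers differed between the lines in the same contrast, 5 of 11 tested (COL1A1, COL1A2, COL3A1, COL5A1 and RGS5) having a difference of 1.98 to 2.72. For COL5A1 the 786-O side of that difference came from means below the filter limit. Also called were 1 of 2 tested endothelial markers (TIE1, 2.45 ± 0.58) and 1 of 5 renal markers (KRT8, -0.64 ± 0.17). Their part in the BMPR1B result was not tested.

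BAMBI resembles a type I receptor without the kinase and dampens BMP and TGF-beta signals. Untreated 786-O tumours of the sorafenib arm read 704, 713, 741, 793 and 809 and resistant ones 509.5, 490.4, 510.4, 254 and 397. The untreated tumours lay within a narrow band, all above the resistant ones, and BAMBI fell by 0.82 ± 0.26 (adjusted p = 0.0336). The call was lost without any 1 of untreated replicates 2, 3, 4 and 5 or resistant replicates 4 and 5 (differences -0.83 to -0.64, adjusted p = 0.0504 to 0.116). It was also lost with no filter on low values (adjusted p = 0.0521), with arrays centred (-0.73, adjusted p = 0.0746) and without the 2 arrays with the largest 3′ to 5′ gap of the ACTB control probe sets (-0.62, adjusted p = 0.186), so in 9 of 24 alternatives in all. Both of those arrays are of this arm, untreated replicate 5 (gap 1.03) and resistant replicate 4 (gap 0.67). Without them the arm's background of 2092 called genes was 1233. With sunitinib untreated tumours read 982, 856, 708, 531 and 499.9 and resistant ones 526, 539.9, 529.5 and 412, at a difference of -0.46 ± 0.28 (adjusted p = 0.390). In A498 they read 1237, 2136, 1899.9 and 2383 against 2322, 5295, 2242, 1876 and 1376, a difference of 0.33 ± 0.28 (adjusted p = 0.528), with resistant replicate 2 above all other tumours of the series.

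LEFTY1 is a secreted inhibitor of NODAL signals. In the sorafenib arm of 786-O untreated tumours read 313, 481, 509, 506 and 357 and resistant ones 60.4, 17.3, 59.5, 39.5 and 81.9. All 5 resistant tumours lay below the filter limit, and LEFTY1 fell by 2.79 ± 0.43 (adjusted p = 5.43e-05). That was the largest difference among the members in the 3 arms, and its size depends on dim values. With sunitinib untreated tumours read 248, 693, 211, 236 and 145 and resistant ones 104, 98.0, 121 and 164. These overlapped by 1 tumour of each group, at -1.05 ± 0.45 (adjusted p = 0.195). A498 was the brightest line for this gene, at 1180.3, 2702, 4150.5 and 1827 untreated and 493, 323, 1362, 1067 and 2124 resistant. The A498 difference of -1.33 ± 0.45 was not called (adjusted p = 0.0789), and without resistant replicate 5 it was -1.65 and called (adjusted p = 0.0292). LEFTY1 has a near-identical neighbour, LEFTY2, and hybridisation to either transcript could not be told apart, so its values are uncertain as to which gene they report.

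SMAD7 binds activated type I receptors of both branches and recruits the ubiquitin ligases that remove them. In the sorafenib arm of 786-O untreated tumours read 537, 431, 453, 587 and 455 and resistant ones 754, 739, 679.5, 806 and 646, without overlap. The rise was 0.55 ± 0.12 (adjusted p = 0.00318). With sunitinib untreated tumours read 536, 483, 486, 407 and 426 and resistant ones 605, 672, 949.8 and 911, again without overlap, and the rise was 0.71 ± 0.13 (adjusted p = 0.00301). In A498 the signals were 546, 618, 736 and 622 against 685, 966, 777, 768 and 720.2. There 2 resistant tumours lay below the highest untreated one, and the difference of 0.30 ± 0.13 (95% interval 0.03 to 0.57) was not called (adjusted p = 0.177). The change did not differ by the test between the drugs in 786-O, at -0.16 ± 0.18 for sorafenib minus sunitinib (adjusted p = 0.742, 95% interval -0.53 to 0.21).

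SMAD6, which acts mainly against the BMP branch, had lower means in resistant tumours of each arm and was called in none. Untreated 786-O tumours of the sunitinib arm read 228, 204, 186, 195 and 193, and resistant ones 166, 159, 156 and 177. Every resistant tumour was below every untreated one, and the difference was the uncalled -0.27 given above. In A498 untreated tumours read 339.8, 311, 365 and 322 and resistant ones 244, 268, 228, 190.1 and 294, without overlap, at -0.44 ± 0.15 (adjusted p = 0.0894). In the sorafenib arm of 786-O the signals ran from 159 to 281 untreated and from 127 to 265 resistant, at -0.31 ± 0.14 (adjusted p = 0.156). Without resistant replicate 3, the tumour at 265, that difference was -0.46 and called (adjusted p = 0.0146). The other 3 SMAD6 probe sets were dim, with means of 26.6 to 56.9 over all arrays, and only 1 of them passed the filter. In the sunitinib arm that set differed by 0.76 ± 0.44, opposite in sign to the bright set, and was not called (adjusted p = 0.394).

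**Figure D2:**
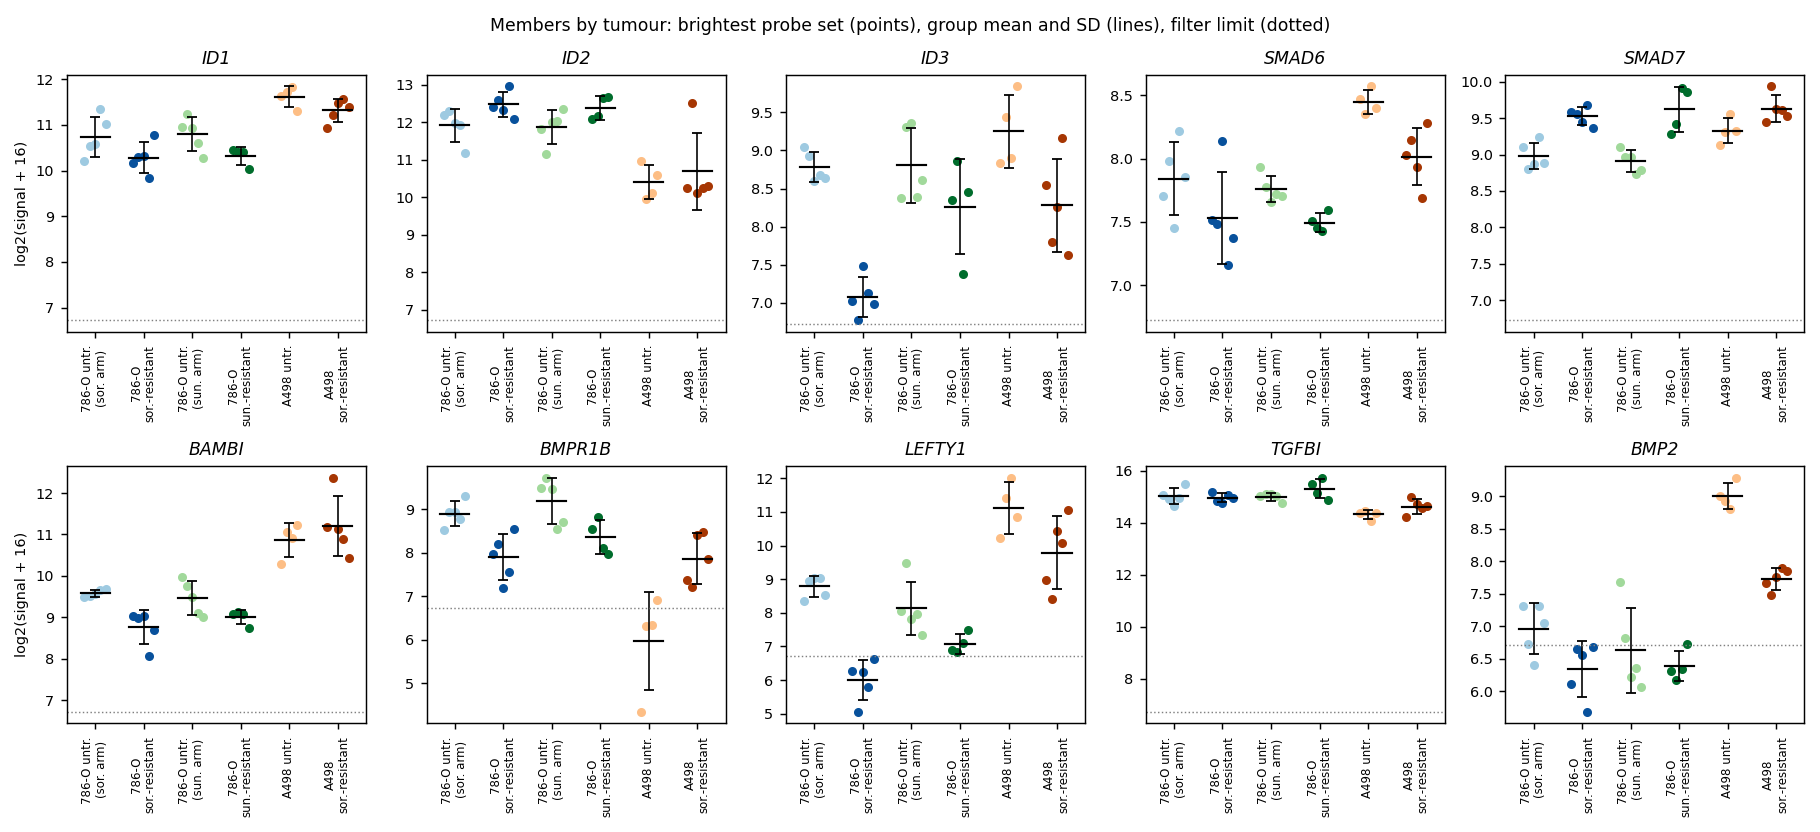
Level of each member in every tumour, as log2(signal + 16) of the brightest probe set, by group. Lines give the group mean and SD, and the dotted line is the filter limit at 6.72. LEFTY1 lies below that line in all 5 sorafenib-resistant 786-O tumours, and 1 of 4 untreated A498 tumours is above it for BMPR1B.

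ID1, ID2 and ID3 encode inhibitors of DNA binding that pair with basic helix-loop-helix factors and keep them off DNA, and they are standard readouts of BMP signalling. The 3 did not move alike. ID3 in the sorafenib arm of 786-O read 512, 472, 372, 394 and 383 in untreated and 115, 93.2, 164, 124 and 111 in resistant tumours. The highest resistant tumour was less than the lowest untreated one, and ID3 fell by 1.70 ± 0.28 (adjusted p = 1.36e-04). With sunitinib untreated tumours read 315, 614, 638, 318 and 376 and resistant ones 309, 451, 151 and 335, which overlap, at -0.54 ± 0.30 (adjusted p = 0.341). The change with sorafenib exceeded that with sunitinib by -1.16 ± 0.41 in ID3 and by -1.75 ± 0.62 in LEFTY1, and neither was called (adjusted p = 0.180 and 0.183). Of the 10 members 0 were called in that contrast between drugs, against 0.949% of all genes (131 genes, or 64 to 171 without single arrays).

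In A498 ID3 read 439, 678, 462 and 901 in untreated and 357, 207, 290.0, 557 and 182 in resistant tumours. A single resistant tumour, at 557, lay above the 2 lower untreated ones. ID3 fell by 0.97 ± 0.30, which passed the threshold narrowly (adjusted p = 0.0495). It was lost without any 1 of untreated replicates 1, 2 and 4 or resistant replicates 2, 3 and 5 (differences -1.11 to -0.78, adjusted p = 0.0552 to 0.169). It was also lost with pseudocount 1 (adjusted p = 0.0570), no filter (0.0768), averaged probe sets (0.0503), the ACTB covariate (0.0538), only the A498 arrays (0.147) and without the 2 arrays of largest ACTB gap (0.0600), so in 12 of 22 alternatives in all. Those 2 arrays are of 786-O tumours, and without them the A498 difference stayed at -0.97.

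ID1 ran from 1166 to 2582 in untreated and from 897 to 1739 in resistant 786-O tumours of the sorafenib arm. The difference was -0.46 ± 0.20 (adjusted p = 0.124), and without untreated replicate 1 it was -0.59 and called (adjusted p = 0.0494). With sunitinib its untreated tumours ran from 1229.8 to 2414 and its resistant ones from 1032 to 1384, at -0.48 ± 0.21 (adjusted p = 0.206). In A498 it ran from 2523 to 3641 and from 1937 to 3038, at -0.30 ± 0.21 (adjusted p = 0.440). ID1 thus had a lower mean in each arm and overlapped in each.

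ID2 had higher means in resistant tumours. In the sorafenib arm of 786-O it ran from 2326 to 5078 in untreated and from 4359 to 7969.8 in resistant tumours, at 0.56 ± 0.34 (adjusted p = 0.301). In the sunitinib arm it ran from 2277 to 5257 and from 4304 to 6551, at 0.51 ± 0.36 (adjusted p = 0.487). In A498 untreated tumours read 1978, 977, 1091 and 1546 and resistant ones 1210.3, 5864, 1096, 1206 and 1255. Resistant replicate 2 stood far above the rest, on the second ID2 probe set too, where it read 1045 and the others 188 to 213. The A498 difference of 0.28 ± 0.36 (adjusted p = 0.713) was -0.17 without that tumour. Its array had the lowest median correlation with its own group among the A498 arrays (r = 0.963, against 0.965 to 0.971 for the others). In its group the same tumour was also the highest for BAMBI, SMAD7 and TGFBI and the lowest for LEFTY1, BMPR1B and BMP2. The ID1, ID2 and ID3 probe sets have names that mark possible binding of related transcripts, so none of the 3 genes keeps a value when such sets are left out.

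TGFBI, a secreted matrix protein induced by TGF-beta, was called in no arm. Untreated 786-O tumours of the sorafenib arm ran from 25762 to 46130.2 and resistant ones from 27987 to 37328, at -0.05 ± 0.16 (adjusted p = 0.874, 95% interval -0.38 to 0.28). The sign of that difference was not stable: it was 0.038 after centring, 0.11 after quantile normalisation and 0.068 without untreated replicate 5. With sunitinib the signals ran from 27604 to 35759.8 and from 30346 to 54998, at 0.31 ± 0.17 (adjusted p = 0.333). In A498 they ran from 17139 to 22786 and from 19159.8 to 32725, at 0.30 ± 0.17 (adjusted p = 0.317).

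Over all 17 probe sets, 14 passed the filter, and calls were adjusted over 26924 probe sets. In the sorafenib arm of 786-O 6 were called (1 higher, 5 lower), against 12% of all probe sets. In the sunitinib arm 1 was called, against 3.39%, and in A498 2 were, against 4.41%. ID3 in A498 was not among the latter (adjusted p = 0.0609). Between the untreated lines 13 were called, against 52.9%.

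**Figure D3:**
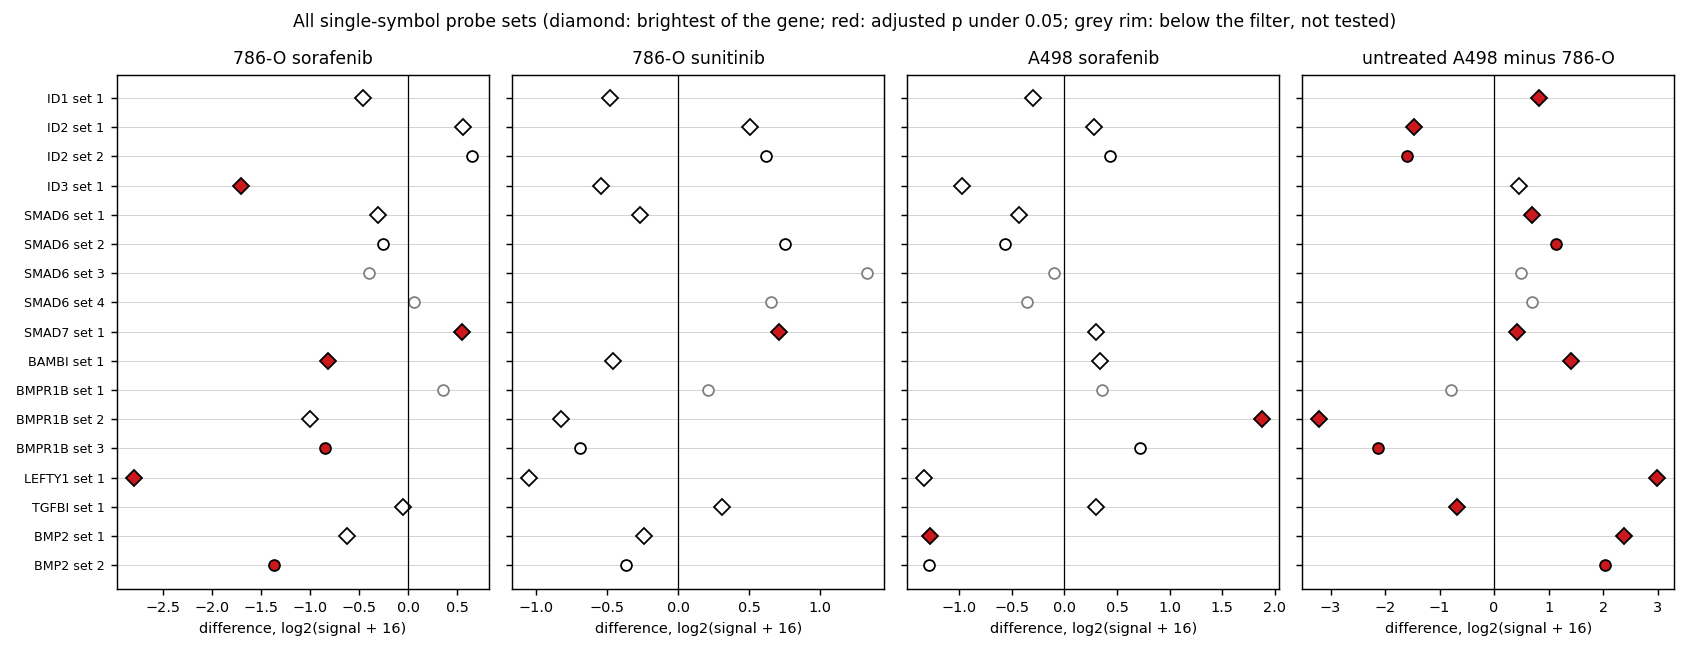
Difference for each of the 17 single-symbol probe sets of the members, on the log2(signal + 16) scale, in the 3 arms and between the untreated lines; axes differ between panels. Diamonds are the brightest set of a gene, red ones passed an adjusted p of 0.05, and grey rims mark the 3 sets below the filter. Both bright BMPR1B sets lie left of 0 in 786-O and right of 0 in A498, and both BMP2 sets lie left of 0 in every arm.

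Untreated A498 tumours differed from untreated 786-O tumours of the sunitinib arm in 9 of the 10 members, none of which overlapped between the groups. Of all genes 58% were called in this comparison (27.3% higher and 30.6% lower in A498) and 47.4% did not overlap, which is the background for the members' count. The groups serve again as the controls of the A498 and sunitinib arms, and values are given side by side for that reason. LEFTY1 was 7.98-fold higher in A498 (3.00 ± 0.45, adjusted p = 3.11e-06), BMP2 5.18-fold (2.37 ± 0.25, 1.47e-08) and BAMBI 2.65-fold (1.41 ± 0.28, 9.85e-05). ID1, SMAD6 and SMAD7 were 1.76-, 1.61- and 1.33-fold higher (adjusted p = 0.00169, 3.86e-04 and 0.00834). BMPR1B was 9.22-fold lower in A498 (-3.20 ± 0.39, 1.12e-07), ID2 2.77-fold (-1.47 ± 0.36, 0.00114) and TGFBI 1.61-fold (-0.68 ± 0.17, 0.0011). The size for BMPR1B rests on dim values, since 1 of 4 untreated A498 tumours was above the filter limit, and it was -2.66 without untreated A498 replicate 1 and -2.13 ± 0.24 on the second probe set. ID3 did not pass, at 0.45 ± 0.30 (adjusted p = 0.204). A498 thus had the higher level of the ligand BMP2 and the lower level of the receptor BMPR1B, and the resistant A498 tumours lay between its untreated tumours and those of 786-O in the mean of both genes.

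The group means, as log2 values, put BMPR1B in the order 9.18 and 8.89 for the untreated 786-O groups, 8.36 for sunitinib-resistant and 7.89 for sorafenib-resistant 786-O, 7.86 for resistant A498 and 5.98 for untreated A498. The neighbours at 9.18 and 8.89, at 8.36 and 7.89 and at 7.89 and 7.86 differed by less than the larger of their SDs (0.53, 0.53 and 0.58), and the other pairs by more. For BMP2 the order was 9.0 in untreated and 7.73 in resistant A498, then 6.96, 6.63, 6.39 and 6.34 in 786-O groups, whose SDs were 0.23 to 0.65 and whose neighbours differed by less than the larger SD of each pair. Within a group the SD of a member's log2 level ran from 0.07 (SMAD6, sunitinib-resistant 786-O) to 1.13 (BMPR1B, untreated A498). The 2 untreated 786-O groups differed in 0 of 10 members by the test, with differences between -0.29 and 0.66 and 0 members without overlap. Of all genes 0.275% (38 genes, or 14 to 50 without single arrays) were called there and 2.77% did not overlap.

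Other genes of the pathways were taken from lists of ligands, receptors, signal SMADs, regulators and response genes. Of 83 listed genes, 77 had a value and 64 were tested. In the sorafenib arm of 786-O 10 rose and 4 fell, where 5.97% of all genes rose and 9.18% fell, and their median difference was 0.00 beside -0.05 over all genes. INHBA, the subunit of activin A, rose 1.35 ± 0.22 (signal 313 ± 74.1 SD untreated, 823 ± 189 resistant, adjusted p = 1.20e-04), and the ligand TGFB2 fell by 1.22 ± 0.28 (769.8 ± 73.3 to 333 ± 119). Among receptors TGFBR2 rose by 0.41 ± 0.13 and ACVRL1, the endothelial BMP9 receptor, fell by 1.80 ± 0.41, to a mean of 31.1 that is below the filter limit. The endothelial marker TIE1 fell in the same tumours, as given above. PECAM1, the other tested endothelial marker, had a mean signal of 137 ± 26.5 SD in untreated and 141 ± 39.9 in resistant tumours. The part of endothelial cells in the ACVRL1 result was not tested. SMAD3, the signal protein of the TGF-beta branch, rose by 0.90 ± 0.16 (813 ± 119 to 1562 ± 412) without overlap and was the 1 of 6 signal SMADs called. Of 11 extracellular regulators 4 rose and 1 fell. The latent TGF-beta binding proteins LTBP1 and LTBP3 rose by 1.23 ± 0.30 and 1.06 ± 0.27 (adjusted p = 0.00556 and 0.00779), and TWSG1, a BMP-binding protein, fell by 0.52 ± 0.10. Inside the cell the ubiquitin ligase SMURF1 and the feedback inhibitor PMEPA1 rose by 0.53 ± 0.13 and 0.53 ± 0.18, and STRAP fell by 0.27 ± 0.08. Of 11 response genes CCN2, a target of TGF-beta, rose by 1.14 ± 0.36.

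Several of these calls were close to the threshold. Leaving out single arrays of the arm lost those of PMEPA1 in 8 of 10 fits (adjusted p up to 0.0977), CCN2 in 7 (up to 0.0955), TGFBR2 in 6 (up to 0.125) and STRAP in 3 (up to 0.0973). SMURF1 was 0.07 and not called when its probe sets were averaged, and LTBP1 was 1.05 and just missed the threshold without the 2 arrays of largest ACTB gap (adjusted p = 0.0515). Those of INHBA, TGFB2, SMAD3, TWSG1, LTBP3 and ACVRL1 held in every alternative that gave them a value.

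In the sunitinib arm of 786-O 6 of the 64 rose and 1 fell, against 2.22% and 2.84% of all genes, at a median of 0.05 beside -0.01 over all genes. NBL1, a secreted BMP antagonist, rose by 1.12 ± 0.13 (1001 ± 181 to 2178 ± 261, adjusted p = 5.40e-05). It was called higher in the sorafenib arm of 786-O as well. FSTL3, a secreted activin antagonist, rose by 1.02 ± 0.18 (1288 ± 87.1 to 2638 ± 284, adjusted p = 0.00176). The type II receptor ACVR2A fell by 0.55 ± 0.11, PMEPA1 rose by 0.68 ± 0.19, and of 11 response genes CCN2 and MSX2 rose by 1.58 ± 0.38 and 0.78 ± 0.21. The remaining riser of that list, named after its value was seen, was TGFB1I1 at 0.51 ± 0.14. The count of 7 was 4 without resistant replicate 2 and 3 without resistant replicate 3. The calls of PMEPA1, MSX2 and CCN2 were lost in 7, 4 and 2 of the 9 fits that left out 1 array of the arm (adjusted p up to 0.0874, 0.138 and 0.0714). ACVR2A was not called with only the arm's own arrays in the fit (adjusted p = 0.0708).

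In A498 2 of the 64 rose and 0 fell, against 2.93% and 3.4% of all genes, at a median of 0.17 beside 0.03, namely LTBP1 by 1.42 ± 0.32 (1502 ± 897 to 3799 ± 1233) and PMEPA1 by 0.65 ± 0.19. PMEPA1 was thereby the 1 listed gene called in all 3 arms, and in A498 its call was lost in 5 of 9 such fits (adjusted p up to 0.161). The share of all genes called in all 3 arms was not worked out, so that count has no background. PMEPA1 is a TGF-beta target whose protein dampens the pathway. LTBP1 was not called with only the A498 arrays in the fit (adjusted p = 0.0712). The count of 2 was 1 without untreated replicate 1 or 4 or resistant replicate 3 or 4, 4 without resistant replicate 1 and 6 without untreated replicate 3.

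**Figure D4:**
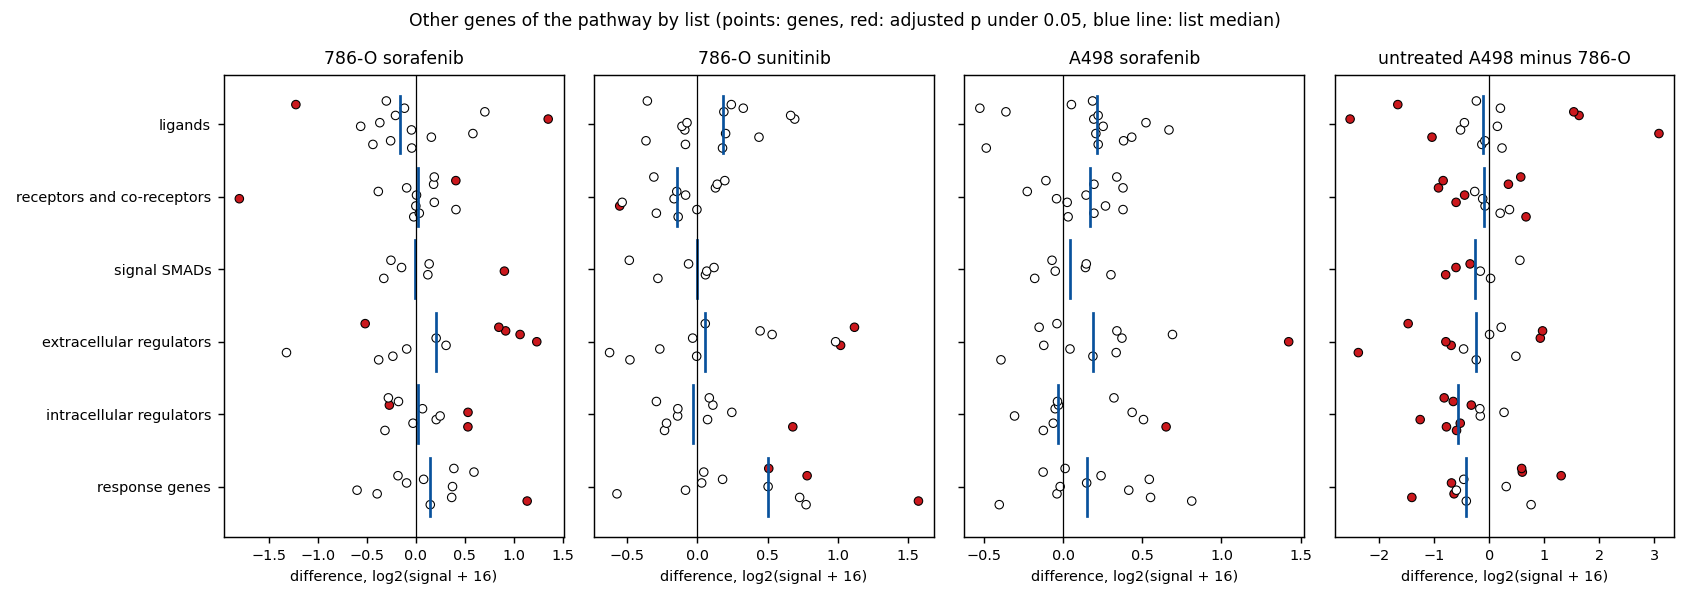
Differences of the 64 tested pathway genes that are no members, by list, on the log2(signal + 16) scale, in the 3 arms and between the untreated lines; axes differ between panels. Red points passed an adjusted p of 0.05 and blue lines are list medians. Calls number 14 in the sorafenib arm of 786-O, 7 in the sunitinib arm, 2 in A498 and 35 between the lines.

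Between the untreated lines 11 of the 64 genes were higher in A498 and 24 lower, at a median of -0.24 beside -0.06 over all genes. The total of 35 is near the background, as 58% of all genes were called (27.3% higher and 30.6% lower). By direction the share higher lay below that of all genes and the share lower above it, which was not tested. Of ligands GDF15 (3.08 ± 0.24) and INHBB (1.63 ± 0.22) were higher in A498 and INHBA (-2.53 ± 0.23) and TGFB2 (-1.66 ± 0.29) lower. Of receptors ACVR1 (0.67 ± 0.08) and TGFBR3 (0.57 ± 0.24) were higher and the co-receptor RGMB (-0.92 ± 0.13) and TGFBR2 (-0.84 ± 0.14) lower. SMAD2 and SMAD4 were lower by 0.79 ± 0.11 and 0.60 ± 0.12. Of regulators LTBP4 (0.97 ± 0.24) and LTBP2 (0.93 ± 0.22) were higher, the BMP antagonists CHRDL1 (-2.38 ± 0.56) and TWSG1 (-1.47 ± 0.10) lower, and the repressors SKI (-1.25 ± 0.17) and TGIF2 (-0.82 ± 0.23) lower, CHRDL1 to a dim mean of 30.0. Of response genes MSX2 (1.31 ± 0.21) and NEDD9 (0.60 ± 0.25) were higher and GADD45B (-1.41 ± 0.26) and KLF10 (-0.69 ± 0.15) lower. The calls of TGFBR3 and NEDD9 were lost in 5 and 6 of the 9 fits without 1 array (adjusted p up to 0.186 and 0.161).

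The genes with levels nearest to each member's, by the root mean square difference of centred log2 levels over the 28 arrays, were RAD51C for ID1 (0.25), FAM241A for ID2 (0.45), KCTD12 for ID3 (0.47), STAMBP for SMAD6 (0.18), C8orf58 for SMAD7 (0.21), PODXL for BAMBI (0.36), EVC for BMPR1B (0.66), MBNL3 for LEFTY1 (0.76), LGALS1 for TGFBI (0.10) and DNAAF11 for BMP2 (0.41). These distances are to be read against the members' own SDs over the 28 arrays, which were 0.56 for ID1, 0.35 for SMAD7, 1.15 for BMPR1B and 1.80 for LEFTY1. None of the 10 nearest genes was another member. The next nearest gene to SMAD7 was TGFB1I1 (0.21), a gene of the response list.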

How the data were processed

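RNA of 28 xenograft tumours had been hybridised to Affymetrix HG-U133 Plus 2.0 arrays, 1 array a tumour. The deposited values are linear probe set signals (unit intensity), scaled by the authors to 1 trimmed mean; RMA and MAS5 are named in the submitters' processing notes, without role or version. Of 54675 probe sets, 62 were controls, 41091 carried 1 gene symbol, 1801 carried several and 11721 had no entry; names were updated by Entrez ID (41037) or symbol (54). From the deposited intensity values log2(signal + 16) was taken and the brightest single-symbol probe set kept per gene. Genes above signal 89.4 on at least 4 arrays were tested with limma 3.58.1 (R 4.3.3; 1 coefficient per group, all 28 arrays, eBayes) and Benjamini-Hochberg adjustment over 13808 genes. The number of arrays limits the precision. The fit was tested on simulated data. Figures were drawn with matplotlib 3.10.9 under Python 3.11.15.

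Replicate numbers follow deposit order. The members, lists and alternatives (pseudocount, filter, probe set choice, scaling, weights, variance model, covariate, arrays in the fit, pooled controls, single arrays left out) were chosen with earlier results of these data known. Named besides the members were, of each pathway list and comparison, at most the 2 largest called rises and falls, called markers, and the 3 genes nearest each member. Listed genes without a single-symbol value were not analysed here. Sample codes begin 33 in the sorafenib arm of 786-O and 35 in all others, with no meaning stated, and each arm lay within 1 code.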

Additional observations from a re-analysis of the deposited data

Results flagged for a closer look

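In 4 of 60 groups of members, each of 4 or 5 tumours, a single tumour was marked by Dixon's rule, and chance alone marks about 1 group in 20. The rule sets the gap to the nearest tumour against the range of the group, and that ratio was 0.75 to 0.92 here. A small gap is marked too where the other tumours lie close together. ID2 was 12.52 on the log2 scale (signal 5864) in sorafenib-resistant A498 replicate 2, and the next highest tumour was at 10.31. ID1 was 10.03 (signal 1032) in sunitinib-resistant 786-O replicate 4, where the nearest tumour was at 10.40, and BAMBI was 8.74 (signal 412) in that same tumour, where the nearest was at 9.08. TGFBI was 14.75 (signal 27604) in untreated 786-O replicate 5 of the sunitinib arm, and the nearest was at 15.03. Causes of these values were not tested.

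The response of BMPR1B to sorafenib differed between the lines by 2.88 on the log2 scale (limma interaction, adjusted p = 0.0024), from -1.0 in 786-O and 1.88 in A498.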

How the results depend on the processing

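No paired analysis was possible because replicate numbers follow deposit order and pair no tumours. The calls of LEFTY1, ID3 and SMAD7 in the sorafenib arm of 786-O, of BMP2 in A498 and of BMPR1B between lines under sorafenib held in every alternative that gave them a value (adjusted p up to 6.02e-04, 0.00112, 0.0306, 0.0173 and 0.0232). Members called numbered 3 to 6 in the sorafenib arm of 786-O (3 to 5 without single arrays) and 6 to 9 between the untreated lines. With only the arrays of a comparison in the fit, 0 members were called with sunitinib and 1 in A498, 3 and 0 pathway genes, and 0 member probe sets with sunitinib. With both untreated 786-O groups pooled, 2 members, 11 pathway genes and 3 member probe sets were called with sunitinib and 1 member between drugs. Centring gave 5 members and 1 pathway gene in A498. Averaged probe sets gave 9 pathway genes in the sorafenib arm of 786-O and 1 in A498, a stricter filter 5 in A498 and 8 member probe sets between lines, array weights 6 pathway genes and 4 member probe sets in A498, and pseudocount 64 gave 5 of the latter. Without the 2 arrays of largest ACTB gap 3 member probe sets were called in the sorafenib arm of 786-O. Without single arrays, members called between lines under sorafenib numbered 1 to 2, and pathway genes 3 to 9 with sunitinib and 1 to 6 in A498. TGFBI in the sorafenib arm of 786-O changed sign to 0.038 (centred), 0.11 (quantile) and 0.037 (without those 2 arrays). Without single arrays it ran from -0.14 to 0.068, BMP2 with sunitinib from -0.38 to 0.026 and ID2 in A498 from -0.17 to 0.47. ID1, ID2, ID3 and SMAD6 had no value where probe sets that may bind related transcripts were dropped. The cause was not tested.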
